A study of Mus musculus with 32 samples.

Results

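Expression was examined for 10 mouse genes that are best known from tissue macrophages and from iron handling: Vcam1, Mrc1, Hmox1, Slc40a1, C1qa, C1qb, C1qc, Cd5l, Axl and Mertk. They were taken by symbol from the 4 deposited count tables, which hold 25282 distinct gene rows, and all 10 were present in each table. The genes were chosen by measured values. Vcam1, Mrc1 and Hmox1 were listed because they lean higher in marrow libraries labelled KO, and Slc40a1 because it is higher in fetal knockout stem cells, so the stem cell comparisons of all 10 genes are described below without a test. The stated reasons for the choice name no leukaemia value, and the leukaemia comparisons were tested, although earlier results of these data were known when the genes were chosen.

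The study profiled poly-A RNA in 32 libraries from mice that differ in Prdm16, a zinc finger transcriptional regulator made in a full-length form (f-PRDM16) and a short form (s-PRDM16). Leukaemia cells carrying the MLL-AF9 fusion were sorted from moribund mice, with 3 libraries in each of 4 groups: wild type with empty vector (WT+EV), Prdm16 knockout with empty vector (KO+EV), knockout overexpressing f-PRDM16 (KO+f) and knockout overexpressing s-PRDM16 (KO+s). Haematopoietic stem cells (HSCs) were sorted as Lin-cKit+Sca1+CD48- from adult bone marrow (4 wild-type libraries and 4 labelled KO), from fetal liver of a total Prdm16 knockout and its wild type (3 each), and from fetal liver of an f-PRDM16 knockout labelled 47bp, which makes s-PRDM16 only, and its wild type (3 each). The marrow and total-knockout fetal libraries are named with the prefix VAV, which the labels do not explain. The labels do not say which Cre or promoter was used, or whether replicates came from single or pooled animals. The age of the mice is not given beyond adult and fetal, and the stem cell RNA was amplified with a low-input kit before sequencing. For that reason levels are set side by side across tables, and tests stay within a table.

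Macrophages of the spleen, liver and marrow clear ageing red cells, open the haem ring with haem oxygenase and return the iron to plasma through ferroportin. They take up dying cells through receptors of the TAM family (TYRO3, AXL, MERTK) and secrete the complement protein C1q, whose A, B and C chains come from 3 genes. VCAM1 on stromal cells and macrophages binds the integrin VLA-4 on blood cells and holds stem cells in their niche. In bulk RNA, fewer cells of a type and less RNA per cell cannot be told apart.

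Summed gene counts per library ranged from 16353584 to 23785307 in leukaemia, 22490805 to 29343602 in marrow, 26715538 to 33246080 in the total-knockout fetal table and 35503288 to 44952448 in the f-PRDM16-knockout fetal table. Prdm16 itself was at 0.733 ± 0.305 CPM (counts scaled to a library total of 1000000; mean ± SD, n = 3) in WT+EV and 0.0480 ± 0.0476 in KO+EV, against 273 ± 53.5 in KO+f and 235 ± 58.0 in KO+s. It was 34.5 ± 7.80 in wild-type and 19.8 ± 7.78 in total-knockout fetal HSCs (n = 3 each), and 23.0 ± 10.9 against 7.82 ± 1.81 in the f-PRDM16-knockout table (n = 3 each). Marrow libraries labelled KO had 30.1 ± 13.5 CPM and wild-type marrow 31.0 ± 18.7 (n = 4 each), so Prdm16 RNA did not separate the marrow groups and their label is used below as a label only. A list of 12 HSC genes had 11 or 12 members at 1 CPM or more in each stem cell library. The third KO+EV library stood apart, with granulocyte marker genes summing to 54498 CPM against 10313 to 27159 CPM in the other leukaemia libraries.

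Some marker genes of resident tissue macrophages were close to absent and others were not. Clec4f, Timd4, Vsig4 and Lyve1 had group means of at most 0.124, 0.598, 0.369 and 0.202 CPM in all 10 groups, and Clec4f had 0 counts in every library of 4 groups. A list of 30 macrophage genes summed to 1662 to 3021 CPM in leukaemia. Wild-type marrow had sums of 1363 to 1851 CPM, above the 1257 to 1325 CPM of marrow labelled KO. Fetal sums went the other way for the total knockout, at 702 to 855 CPM against 547 to 630 CPM in wild type. Of 19 list genes with a fitted difference there, 8 were higher without overlap and 1 lower, with a median log2 difference of 0.97. Sums overlapped for the f-PRDM16 knockout, at 1670.5 to 1874 CPM against 1012 to 1875 CPM in wild type. The part of this list in the differences of the 10 genes was not tested. In wild-type marrow Apoe and the lysosomal protease gene Ctsd made up most of the list's sum, at 703 and 628 CPM. Adgre1 (Emr1 in the counts) and Csf1r were at 0.175 and 2.35 CPM there. Marrow labelled KO had less Apoe, at 464 CPM without overlap, and 591 CPM of Ctsd with overlap. Ctsd was the highest gene of the list in every fetal library. Adgre1 and Csf1r were higher in KO+EV and KO+s leukaemia cells, as given below. Other markers of resident macrophages were detected. Cd163 reached 22.6 CPM in a wild-type marrow library, with a group mean of 14.5 CPM. The highest single libraries held 6.14 CPM of Spic (marrow labelled KO), 5.88 of Siglec1 (WT+EV) and 2.63 of Marco (f-PRDM16-knockout HSCs). Their means in those groups were 5.20, 2.88 and 1.21 CPM. After scaling mean CPM to transcript length (the GENCODE M21 length of 1 transcript per gene), Slc40a1 led in WT+EV at 35.7 CPM per kb, Vcam1 in KO+EV at 32.4, and Hmox1 in both KO+f and KO+s at 13.0 and 15.5. Axl led in wild-type marrow at 4.72 CPM per kb, and Mertk, Cd5l and Mrc1 were among the lowest in most groups.

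**Figure D1:**
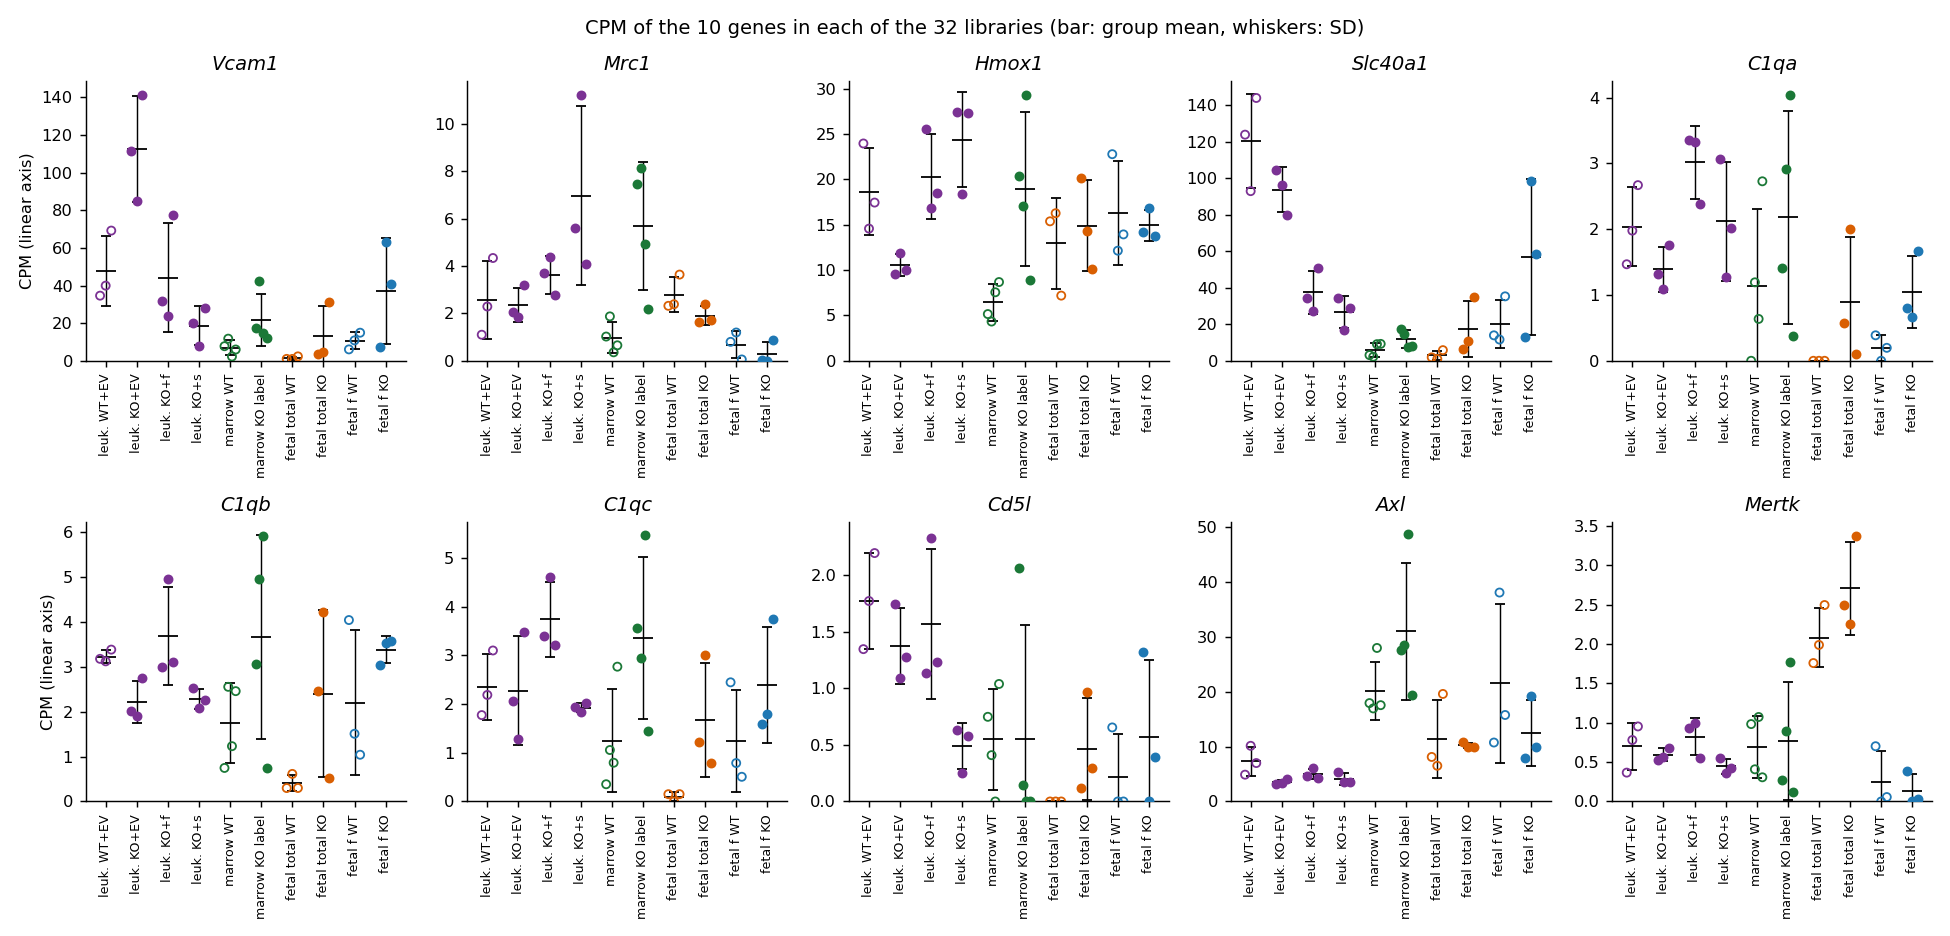
CPM (linear axis, own scale per panel) of the 10 genes in the 32 libraries; points are libraries, open for wild type, horizontal bars are group means and whiskers the SD (n = 3, or 4 in marrow). Vcam1 and Slc40a1 are highest in the leukaemia groups with empty vector, Axl is highest in marrow labelled KO, and C1qa and Cd5l are at 0 in the wild-type libraries of the total-knockout fetal table.

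Upstream sequence was matched for 6 of the 10 genes (Mrc1, C1qb, C1qc, Cd5l, Axl and Mertk) in RefSeq's table for build GRCm38.p6, while the deposited counts were made on mm9. The 3 windows shown are those that hold the letters AGGAAGT, the core bound by ETS factors such as PU.1 (SPI1), a regulator of myeloid genes; this motif was picked after the sequences were seen. Each window is the stretch of up to 250 bases before the transcription start, 5′ to 3′ on the gene's strand, and the capitals mark the motif, which reads ACTTCCT because it lies on the opposite strand in all 3. They lie at chr2:14229164-14229413 (plus strand) for Mrc1, chr4:136886201-136886450 (minus strand) for C1qb and chr4:136892937-136893164 (minus strand, 228 bases) for C1qc.
Mrc1: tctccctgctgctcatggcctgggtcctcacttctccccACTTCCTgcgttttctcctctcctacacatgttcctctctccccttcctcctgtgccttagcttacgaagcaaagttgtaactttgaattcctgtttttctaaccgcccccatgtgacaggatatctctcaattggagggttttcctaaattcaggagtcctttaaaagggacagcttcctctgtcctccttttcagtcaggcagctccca
C1qb: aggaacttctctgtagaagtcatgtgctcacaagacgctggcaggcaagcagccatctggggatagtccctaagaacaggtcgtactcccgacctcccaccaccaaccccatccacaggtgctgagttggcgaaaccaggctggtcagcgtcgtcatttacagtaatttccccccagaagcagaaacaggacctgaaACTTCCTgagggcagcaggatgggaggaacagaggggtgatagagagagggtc
C1qc: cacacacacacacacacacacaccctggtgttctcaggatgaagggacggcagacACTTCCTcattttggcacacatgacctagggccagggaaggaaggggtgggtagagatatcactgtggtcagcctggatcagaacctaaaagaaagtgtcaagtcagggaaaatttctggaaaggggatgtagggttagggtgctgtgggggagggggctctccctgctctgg
The motif on either strand was present in 3 of 6 genes and in 8.8% of the 27025 genes in the table. The core letters of MAF factors, TGCTGA, was present in C1qb and Cd5l and in 18% of genes. The NRF2 and BACH1 core, TGANNNNGC, was in the same pair of genes and in 38.7% of all genes, and overlaps TGCTGA in C1qb. The AP-1 letters TGANTCA were in 0 of 6 windows and in 7.82% of genes. All motifs were searched on both strands, and the matches describe letters in a window.

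Vcam1 encodes the adhesion ligand of VLA-4. Its CPM was 34.6, 39.9 and 69.2 in the WT+EV libraries, 111, 84.8 and 141 in KO+EV, 31.8, 23.6 and 77.3 in KO+f, and 20.3, 7.73 and 28.2 in KO+s. All 3 KO+EV libraries lay above all libraries of the other 3 leukaemia groups. Against KO+EV, Vcam1 fell in KO+s by 2.51 ± 0.55 (log2 fold change ± SE, adjusted p = 0.00598, edgeR quasi-likelihood test with Benjamini-Hochberg adjustment over 12958 genes). KO+f was lower by 1.39 ± 0.52 on that scale and did not pass (edgeR adjusted p = 0.108), with DESeq2 giving 0.0328; without the KO+f library at 77.3 CPM the edgeR value was -2.06 (adjusted p = 0.0350). Vcam1 in KO+EV was 1.27 ± 0.52 above WT+EV on the log2 scale and also missed the threshold (edgeR adjusted p = 0.230), and KO+s did not pass against KO+f (-1.12 ± 0.53, edgeR adjusted p = 0.236).

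In HSCs Vcam1 was lower than in most leukaemia groups. Wild-type marrow had 7.75, 11.8, 2.27 and 6.0 CPM and marrow labelled KO 17.6, 42.2, 14.5 and 12 CPM, so the ranges did not overlap, narrowly, and the fitted log2 difference was 1.64. The total-knockout fetal libraries had 3.48, 4.69 and 31.4 CPM against 1.01, 0.977 and 2.35 in their wild type, a log2 difference of 3.25 that was 1.51 without the library at 31.4 CPM. The f-PRDM16-knockout libraries had 7.5, 63.4 and 40.9 CPM against 6.05, 10.8 and 14.9, a log2 difference of 1.90 with overlapping ranges. In each of the 3 same-numbered fetal pairs of both tables the knockout library was the higher. The order of the 10 groups by mean ran from KO+EV at 113 ± 28.4 CPM to wild type of the total-knockout fetal table at 1.44 ± 0.781, and only KO+EV did not overlap its next lower neighbour, WT+EV (47.9 ± 18.6 CPM).

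Slc40a1 encodes ferroportin, the cellular iron exporter. In leukaemia it had 124, 93.0 and 144 CPM in WT+EV, 105, 96.6 and 80.1 in KO+EV, 34.3, 27.3 and 50.7 in KO+f, and 34.6, 16.9 and 28.8 in KO+s. Every library with either PRDM16 form was below every library with empty vector. Slc40a1 fell in KO+f against KO+EV by 1.35 ± 0.28 (log2 ± SE, edgeR adjusted p = 0.0130) and in KO+s by 1.71 ± 0.28 (edgeR adjusted p = 0.00128). The KO+f call was lost without its first library (edgeR adjusted p = 0.0503) or its second (0.0592); the KO+s call held in all fits run. The 2 comparisons share the KO+EV libraries. KO+EV against WT+EV gave -0.34 ± 0.27 (edgeR adjusted p = 0.555), and KO+s against KO+f gave -0.36 ± 0.28 (edgeR adjusted p = 0.464).

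In fetal HSCs Slc40a1 was at 1.87, 1.01 and 5.84 CPM in the wild type and 6.41, 10.7 and 35.2 CPM in the total knockout, with no overlap and a log2 difference of 2.64 (1.57 without the library at 35.2 CPM). It was at 14.0, 11.6 and 35.3 CPM in the wild type and 13.0, 98.8 and 58.6 CPM in the f-PRDM16 knockout, a log2 difference of 1.56 (0.95 without the library at 98.8 CPM). The ranges overlapped there, and 1 of the 3 same-numbered pairs was lower in the knockout. Marrow was at 3.11, 2.22, 9.11 and 9.26 CPM in the wild type and 17.4, 14.5, 7.74 and 8.21 CPM in libraries labelled KO, with overlap and a log2 difference of 1.01.

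The fetal libraries high in Vcam1 and Slc40a1 were also high in granulocyte genes. In the total-knockout table the list of 14 granulocyte genes summed to 175, 277 and 1828 CPM in wild type and 774, 1502 and 13472 CPM in knockout libraries 1, 2 and 3, and the last of these held the highest Vcam1 and Slc40a1. In the f-PRDM16-knockout table it summed to 7300, 3509 and 21529 CPM in wild type and 7865, 32325 and 47690 CPM in the knockout, where libraries 2 and 3 held the highest values of both genes. Marrow differed: its libraries labelled KO with the highest Vcam1 and Slc40a1 had sums of 371 and 380 CPM, the lowest in that table, and the sum reached 1843 CPM in the fourth. The library with that sum was the lowest of its group for 8 of the 10 genes: Vcam1, Mrc1, Hmox1, C1qa, C1qb, C1qc, Axl and Mertk. The HSC gene list moved in the fetal tables too. Its 12 genes summed to 1490 to 1849 CPM in wild type and 1265 to 1444 CPM in the total knockout, with a median log2 difference of -0.32, and to 1282 to 2587 CPM against 1005 to 1461 CPM in the f-PRDM16 knockout, with a median of -0.84. Liver and red-cell genes were uneven as well. In the total-knockout table a hepatocyte gene list summed to 211, 145 and 18.7 CPM in wild type. Its sums were 236, 82.0 and 20.7 CPM in the knockout, so the third library of each group was lowest. An erythroid list of 13 genes summed to 2510 to 4063 CPM in the total-knockout table, where each library had counts for all of them. In the f-PRDM16-knockout table it summed to 121 to 609 CPM, and each library had 4 or 5 of the 13 genes at 0 counts. Hbb-b1 or Hbb-b2 was the highest gene in the former and Car2 in the latter, so the sums are not compared between these tables. The part of what any of these lists measures in the differences of Vcam1, Slc40a1, Cd5l and the C1q genes was not tested.

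**Figure D2:**
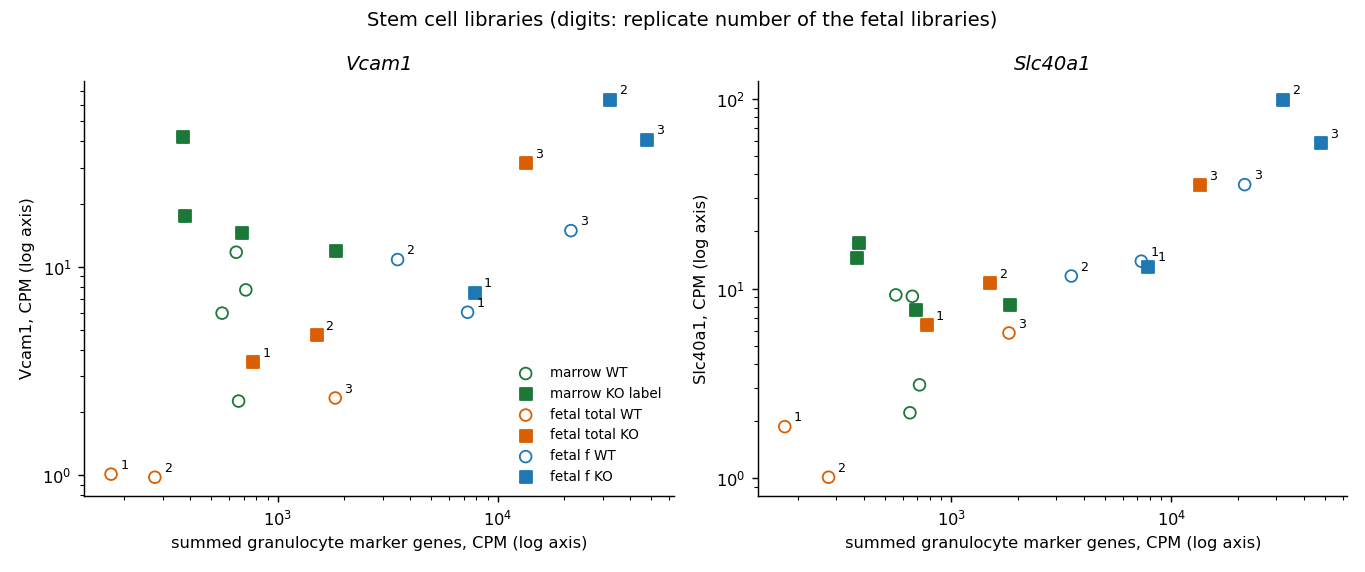
Vcam1 (left) and Slc40a1 (right) in CPM against the summed CPM of 14 granulocyte genes in the 20 HSC libraries, log axes; each point is a library, open circles wild type, squares knockout or labelled KO, digits the replicate number of fetal libraries. Fetal libraries spread along the diagonal, from 1.01 CPM of Slc40a1 at a sum of 277 CPM to 98.8 CPM at a sum of 32325 CPM, while marrow libraries do not.

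**Figure D3:**
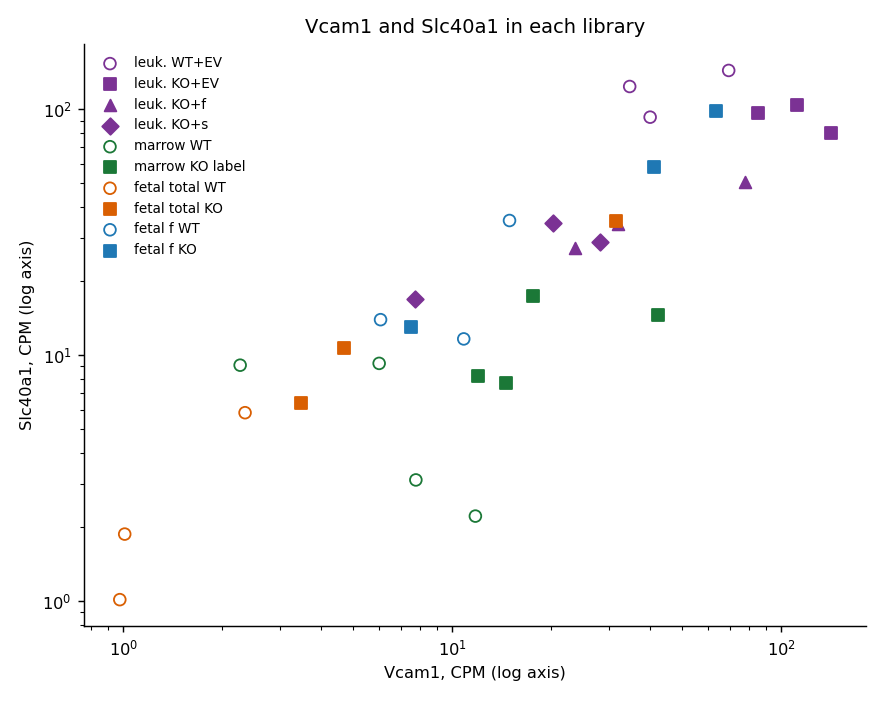
Slc40a1 against Vcam1 in CPM in the 32 libraries, log axes; each point is a library, colour gives the table and open circles the wild type. KO+f and KO+s libraries lie below the empty-vector libraries in Slc40a1, and the high fetal knockout libraries lie beside the leukaemia libraries.

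Hmox1 encodes haem oxygenase 1, which breaks haem into iron, biliverdin and carbon monoxide and is induced through NRF2. It had 24.0, 14.6 and 17.5 CPM in WT+EV, 9.61, 11.9 and 10 CPM in KO+EV, 25.6, 16.8 and 18.5 CPM in KO+f, and 27.4, 18.4 and 27.4 CPM in KO+s. KO+EV was below all 9 other leukaemia libraries. Hmox1 rose in KO+s against KO+EV by 1.30 ± 0.24 (log2 ± SE, edgeR adjusted p = 0.00221) and in KO+f by 0.92 ± 0.24 (edgeR adjusted p = 0.0302). The KO+f call was lost in a fit of those 2 groups alone (edgeR adjusted p = 0.0694), and without any of the KO+EV libraries or without the first KO+f library (0.0618 to 0.105). KO+EV against WT+EV was -0.80 ± 0.24 and did not pass in edgeR (adjusted p = 0.105), whereas DESeq2 gave an adjusted p of 0.0373. KO+s against KO+f was 0.38 ± 0.23 (edgeR adjusted p = 0.363).

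Among HSCs Hmox1 leaned higher in marrow labelled KO, at 20.4, 17.1, 29.3 and 8.87 CPM against 5.15, 4.33, 7.56 and 8.69 in wild type, a log2 difference of 1.55. The fourth library labelled KO lay just above the highest wild-type library. Fetal levels overlapped, at 14.9 ± 5.02 CPM against 13.0 ± 5.01 in the total knockout (log2 difference 0.23, n = 3 each) and 14.9 ± 1.71 against 16.3 ± 5.70 in the f-PRDM16 knockout (-0.05, n = 3 each).

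Mrc1 encodes the mannose receptor CD206, an endocytic lectin of macrophages and sinusoidal endothelium. Its leukaemia level was low, at 1.10, 2.29 and 4.34 CPM in WT+EV, 2.06, 1.86 and 3.19 in KO+EV, 3.69, 4.36 and 2.79 in KO+f and 5.59, 11.2 and 4.07 in KO+s. The 3 KO+s libraries were above the 3 KO+EV libraries, and Mrc1 rose there by 1.62 ± 0.51 (log2 ± SE, edgeR adjusted p = 0.0303). That call was lost without the first or second KO+EV library or the first or second KO+s library (edgeR adjusted p 0.0517 to 0.119). KO+f against KO+EV (0.56 ± 0.51, edgeR adjusted p = 0.490) and KO+EV against WT+EV (-0.10 ± 0.51, 0.947) did not pass. In marrow Mrc1 was 7.45, 8.15, 4.94 and 2.19 CPM in libraries labelled KO and 1.02, 1.87, 0.358 and 0.653 in wild type, with no overlap and the largest log2 difference of the 10 genes in that table, 2.53. In fetal HSCs the ranges overlapped. In the total knockout the knockout library was lower in 3 of 3 same-numbered pairs, the second barely (2.38 against 2.39 CPM). The fitted log2 difference there was -0.50. It was -1.08 in the f-PRDM16 knockout, with 2 of 3 pairs lower, and there it was -2.47 with the replicate number as a block and ran from -5.38 (without the third knockout library) to -0.48 (without the second wild-type library).

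The C1q genes C1qb, C1qc and C1qa are neighbours on the minus strand, between Ephb2 and Epha8 in GENCODE M21. All 3 were at a few CPM or less: the highest library held 4.05 CPM of C1qa, 5.91 of C1qb and 5.47 of C1qc, and each of these was the third marrow library labelled KO. In leukaemia C1qa was 1.32, 1.09 and 1.76 CPM in KO+EV and 3.35, 3.32 and 2.38 in KO+f, which do not overlap, and the difference of 1.07 ± 0.40 on the log2 scale did not pass (edgeR adjusted p = 0.102). C1qb (0.69 ± 0.30, edgeR adjusted p = 0.150) and C1qc (0.66 ± 0.39, 0.284) were also higher in KO+f without passing. KO+s was close to KO+EV for C1qb (0.12 ± 0.30, edgeR adjusted p = 0.789) and C1qc (-0.17 ± 0.40, 0.769), and none of the 3 passed in any leukaemia comparison.

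In the total-knockout fetal table the wild type held almost no C1q RNA. C1qa had 0 counts in all 3 wild-type libraries and 0.580, 2.00 and 0.0984 CPM in the knockout, at least 8.62-fold higher when 3 counts per library are taken as the floor. Without the second knockout library, a setting chosen after seeing the data, that bound was 3.27-fold, and the third held 3 counts, the floor itself. C1qc was at 0.150, 0 and 0.150 CPM against 1.22, 3.00 and 0.787, with no overlap and a log2 difference of 4.02, and C1qb was at 0.299, 0.615 and 0.301 CPM against 2.47, 4.23 and 0.525, with overlap and a log2 difference of 2.58. The second knockout library was the highest for all 3, unlike Vcam1 and Slc40a1, which were highest in the third. In the f-PRDM16-knockout table only C1qa did not overlap, at 0.388, 0 and 0.197 CPM in wild type and 0.797, 0.667 and 1.67 in the knockout (log2 difference 2.48, from 1.88 to 3.54 when a library was left out). C1qb and C1qc had log2 differences of 0.68 (0.34 to 1.53) and 1.00 (0.48 to 2.01) there. In marrow the log2 differences were 0.91, 1.05 and 1.40 for C1qa, C1qb and C1qc, with overlapping ranges. Without the fourth wild-type marrow library C1qa and C1qc were at 1.83 and 2.18, and without the third library labelled KO C1qa was at 0.45. Over the 20 HSC libraries, as deviations of log2(CPM + 0.5) from each table's mean, Pearson's r was 0.89 between C1qa and C1qb, 0.89 between C1qa and C1qc and 0.87 between C1qb and C1qc; libraries share their group and preparation, so these are descriptions.

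Cd5l encodes a secreted scavenger protein of macrophages (AIM, CD5 antigen-like). It was at 1.35, 1.77 and 2.19 CPM in WT+EV, 1.74, 1.09 and 1.27 in KO+EV, 1.13, 2.33 and 1.24 in KO+f and 0.631, 0.254 and 0.575 in KO+s. All KO+s libraries were below all other leukaemia libraries. Cd5l fell in KO+s against KO+EV by 1.38 ± 0.45 (log2 ± SE, edgeR adjusted p = 0.0342), a call near the threshold that was lost without a filter on low counts (0.0530) and, in the fits without KO+EV library 1 or 3 or any KO+s library, reached edgeR adjusted p 0.0549 to 0.113. Against KO+f the difference was -1.54 ± 0.45 (edgeR adjusted p = 0.0713; DESeq2 0.0300). Fetal wild type of the total-knockout table had 0 counts in all 3 libraries, against 0.122, 0.970 and 0.295 CPM in the knockout, at least 4.46-fold higher by the same floor and 2.01-fold without the second knockout library. In the f-PRDM16-knockout table Cd5l was at 0.654, 0 and 0 CPM in wild type and 1.32, 0 and 0.391 in the knockout, with overlap and a fitted log2 difference of 1.41. That value was -0.13 without the first knockout library and 7.58 without the first wild-type library, which leaves a group at 0 counts, so its size depends on the fit and is no bound. In marrow a single library labelled KO held 2.06 CPM and the others 0.144, 0 and 0, against 0.748, 0.409, 0 and 1.04 in wild type. The marrow means were 0.552 and 0.549 CPM, a log2 difference of 0.01 that was -3.32 without the library at 2.06 CPM.

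Axl and Mertk encode TAM receptor tyrosine kinases, which bind GAS6 and protein S on dying cells. Axl was the gene of the 10 with every HSC group mean above every leukaemia group mean: the means ran from 10.2 ± 0.496 to 31.0 ± 12.5 CPM in HSCs and from 3.56 ± 0.404 to 7.35 ± 2.65 CPM in leukaemia. It was at 4.89, 10.2 and 7.01 CPM in WT+EV and 3.27, 3.38 and 4.02 in KO+EV, without overlap, and the difference of -1.02 ± 0.32 (log2 ± SE) did not pass in edgeR (adjusted p = 0.122) and passed in DESeq2 (0.0372). Neither KO+f (0.45 ± 0.32, edgeR adjusted p = 0.376) nor KO+s (0.31 ± 0.32, 0.496) passed against KO+EV. In HSCs the log2 differences were 0.62 in marrow, -0.11 in the total knockout and -0.69 in the f-PRDM16 knockout, all with overlapping ranges. The total-knockout value turned to 0.51 without the third wild-type library, and 2 of its 3 same-numbered pairs were higher in the knockout. All 3 pairs of the f-PRDM16 table were lower in the knockout, and the value there was -0.04 without the second wild-type library. Mertk was highest in the total-knockout fetal table, at 2.08 ± 0.377 CPM in wild type and 2.71 ± 0.591 in the knockout (n = 3 each), a log2 difference of 0.42, and no group elsewhere had a mean above 0.826 CPM. In marrow it was at 0.268, 0.898, 1.78 and 0.124 CPM in libraries labelled KO and 0.984, 0.409, 1.07 and 0.307 in wild type (log2 difference 0.15), and in the f-PRDM16-knockout table at 0.385, 0 and 0.0261 CPM against 0.702, 0 and 0.0563 in wild type. Its leukaemia differences were 0.76 or less in size on the log2 scale and none passed (lowest edgeR adjusted p 0.335). Reads of Vcam1 and Mertk cannot be told from those of the antisense genes Gm43109 and Gm14011 that GENCODE M21 places over them, since the strand setting of the counting is not given in the sources used here.

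By comparison of groups, KO+EV against WT+EV called 0 of the 10 genes in edgeR, with 3 at an unadjusted p under 0.05 and 2 called by DESeq2 (Hmox1 and Axl); 2.1% of all 12958 genes were called. Their ranges did not overlap for 1 gene higher (Vcam1; 10.7% of all genes) and 3 lower (Hmox1, C1qb and Axl; 12.4%). In KO+f against KO+EV 2 of 10 were called, Hmox1 higher and Slc40a1 lower, where 11.3% of all genes were called (6.88% higher, 4.39% lower). In KO+s against KO+EV 5 of 10 were called, Hmox1 and Mrc1 higher and Vcam1, Slc40a1 and Cd5l lower, where 32.4% of all genes were called (15.9% higher, 16.6% lower), so a call there sets a gene little apart. The median log2 change of the 10 genes was -0.03 in that comparison and that of all genes -0.01. KO+s against KO+f called 0 of 10 in edgeR, with 1 at an unadjusted p under 0.05 and 1 called by DESeq2 (Cd5l), where 3.81% of all genes were called.

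**Figure D4:**
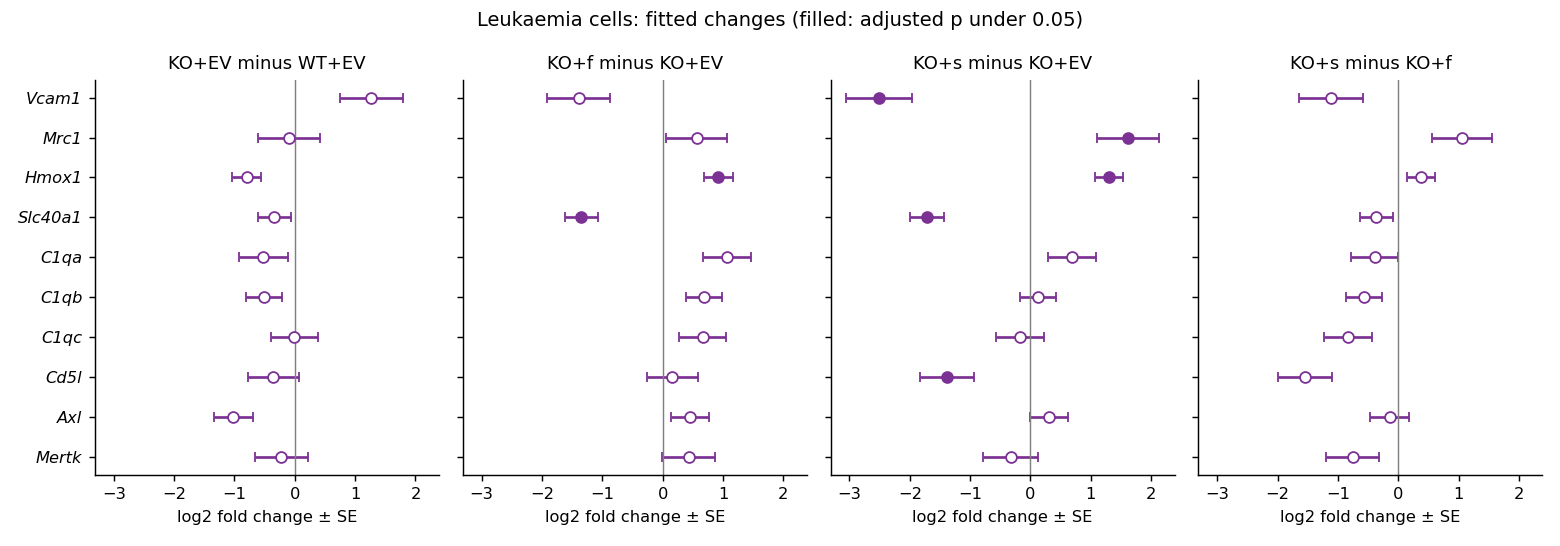
Fitted log2 fold changes of the 10 genes in the 4 leukaemia comparisons, with SE; filled points have an edgeR adjusted p under 0.05. Slc40a1 is lower and Hmox1 higher with either PRDM16 form than in KO+EV, Vcam1, Mrc1 and Cd5l are filled in KO+s only, and none is filled in the first and last panels.

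The stem cell fits called 0 genes of any kind in edgeR. For marrow 1141 of 13495 genes had an unadjusted p under 0.05 and DESeq2 called 82. For the total knockout 739 of 15590 genes did and DESeq2 called 77, while edgeR with the replicate number as a block called 176. For the f-PRDM16 knockout 357 of 13631 genes did and DESeq2 called 4. Ranges did not overlap, with the knockout libraries, or in marrow those labelled KO, higher, for 3 of the 10 genes in marrow (Vcam1, Mrc1 and Hmox1; 3.07% of all genes), for Vcam1, Slc40a1 and C1qc among the 8 that passed the filter in the total knockout (3.67%), and for C1qa among 9 in the f-PRDM16 knockout (1.43%). C1qa and Cd5l did not pass the filter on low counts in the total-knockout table, and Mertk did not in the f-PRDM16-knockout table. Wild-type counts were 4, 0 and 5 for C1qc in the total-knockout table and 16, 0 and 7 for C1qa in the f-PRDM16-knockout table. Both passed the filter through their knockout libraries, so a higher knockout was favoured in advance for them. These comparisons served to choose the genes, so nothing is read from the counts.

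Of 25 tested genes of the macrophage list, 9 rose, 2 fell and 14 did not pass in KO+s against KO+EV, where 15.9% of all genes rose and 16.6% fell. The median log2 change of the list was 0.47, against -0.01 over all genes. The chemokine receptor Cx3cr1 went from 1.69 ± 0.539 to 45.5 ± 3.70 CPM (4.84 ± 0.53 on the log2 scale, edgeR adjusted p = 1.93e-04), and Lgals3, galectin 3, from 10.9 ± 1.31 to 82.6 ± 17.3 CPM (3.01 ± 0.44, 8.92e-04). Adgre1, which encodes F4/80, went from 74.5 ± 32.5 to 279 ± 44.8 CPM (edgeR adjusted p = 0.00140), and the growth factor receptor Csf1r from 32.8 ± 8.92 to 109.8 ± 38.3 CPM (0.00378). In KO+f, where 6.88% of all genes rose and 4.39% fell, 4 of the list rose and 2 fell, with Cx3cr1 (3.56), Lgals3 (2.49) and Csf1r (1.66) among the first and Fcgr4 (-1.27) among the second on the log2 scale. The granulocyte list moved in KO+s as well, with 8 of 14 genes higher and 1 lower than in KO+EV (15.9% and 16.6% of all genes), and its sum was 24225 to 27159 CPM in KO+s against 13224, 13197 and 54498 CPM in KO+EV. In KO+EV against WT+EV, where 2.1% of all genes were called in both directions together, 5 of the 14 granulocyte genes were lower and 1 higher. Their median log2 change was -1.54, although their sum in WT+EV was 10313 to 17859 CPM. Of the 25 macrophage genes 0 rose and 1 fell there, with a median of -0.35. The part of the granulocyte list in the macrophage gene values was not tested.

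Other genes of iron and haem handling moved in both directions: of 28 tested, 5 rose and 6 fell in KO+s against KO+EV, with a median log2 change of 0.05. Both counts are near the shares over all genes, 15.9% higher and 16.6% lower, so they do not set the list apart. Genes that fell included the ferrireductase Steap3 (25.3 ± 1.59 to 7.79 ± 1.32 CPM, edgeR adjusted p = 5.40e-04), the haem-forming ferrochelatase Fech (155.6 ± 21.4 to 53.2 ± 3.22 CPM, 9.77e-04) and Hfe, the haemochromatosis gene (55.9 ± 20.4 to 18.3 ± 1.70 CPM, 0.00160). The haem transporter Slc48a1 rose from 183.9 ± 12.6 to 282 ± 29.9 CPM (edgeR adjusted p = 0.00103). In KO+f, where 6.88% of all genes rose and 4.39% fell, 2 rose and 2 fell: Slc11a1 (1.38 on the log2 scale) and Slc48a1 (0.43), and Hfe (-1.42) and Steap3 (-1.06). Of 17 NRF2 pathway genes other than Hmox1, 4 rose and 3 fell in KO+s, with a median of 0.12, again near the shares over all genes. Those that rose were G6pdx, which makes NADPH (1.07 ± 0.21, edgeR adjusted p = 0.00324), Gsr (0.82 ± 0.19, 0.00746) and the small MAF genes Mafg (0.78 ± 0.16, 0.00368) and Mafk (1.25 ± 0.26, 0.00390). In KO+f only Mafk passed (0.88).

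Partners of VCAM1 and of the uptake receptors were also measured. Of 13 tested genes of the adhesion list, 4 rose and 4 fell in KO+s against KO+EV, where 15.9% of all genes rose and 16.6% fell. The integrin chain Itgb7 went from 3.84 ± 4.00 to 33.8 ± 10.6 CPM (edgeR adjusted p = 0.00577), E-selectin, Sele, from 2.25 ± 0.502 to 5.74 ± 1.52 CPM (0.0112), and Icam1, the ligand of LFA-1, fell from 49.4 ± 19.5 to 16.4 ± 1.83 CPM (0.00221). Itga4, the alpha chain of VLA-4 and named here after its values were seen, rose by 0.64 ± 0.21 on the log2 scale (edgeR adjusted p = 0.0354). Of 18 genes for uptake of dying cells, 3 rose, near the share over all genes, and 5 fell: annexin A1, Anxa1, rose from 41.4 ± 11.8 to 144.7 ± 35.8 CPM (edgeR adjusted p = 0.00140) and the lipid-binding receptor Cd300lf from 18.6 ± 8.03 to 107.9 ± 20.3 CPM (4.02e-04), whereas the sheddase Adam17 (-0.87 ± 0.13, 7.99e-04) and the scavenger receptor Stab1 (-1.62 ± 0.34, 0.00438) fell. In KO+EV against WT+EV, 2.1% of all genes were called, and a fit of only those 2 groups called 1 gene. Of the uptake list, 1 gene rose there and 1 fell. Pros1, protein S, was higher by 3.09 ± 0.56 on the log2 scale (edgeR adjusted p = 0.0295) and Anxa1 lower by 1.90 (0.0196).

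Of 16 complement genes other than C1q, 5 rose and 2 fell in KO+s against KO+EV, where 15.9% of all genes rose and 16.6% fell. C1ra, the protease partner of C1q, went from 0.221 ± 0.162 to 5.01 ± 2.14 CPM (edgeR adjusted p = 2.51e-04), and Itgam, the alpha chain of complement receptor CR3, from 583 ± 66.2 to 1229 ± 132 CPM (3.74e-04), while C1qbp fell by 0.91 ± 0.19 (0.00406) and the anaphylatoxin receptor C3ar1 by 2.64 ± 0.58 (0.00551) on the log2 scale. Of 13 tested lectin and scavenger receptor genes related to Mrc1, 4 rose and 1 fell in that comparison. The median log2 change of that list was -0.41, against -0.01 over all genes. Colec12 went from 5.05 ± 2.48 to 37.0 ± 16.3 CPM (edgeR adjusted p = 0.00219), Clec7a, the beta-glucan receptor, from 22.6 ± 7.98 to 45.0 ± 6.13 CPM (0.00394) and Cd209a from 0.227 ± 0.154 to 3.18 ± 2.05 CPM (0.0105). Pla2r1, a member of the mannose receptor family, was at 9.88 ± 5.65 CPM in KO+EV and had 0 counts in all KO+s libraries, at least 70.1-fold lower with a floor of 3 counts per library (edgeR adjusted p = 7.74e-04).

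The genes most alike in pattern were ranked by Pearson's r of log2(CPM + 0.5), as a description. Over the 12 leukaemia libraries and 11801 genes, Slc40a1 was most like Cotl1, Ints12 and Rpusd3 (r = 0.98, 0.97 and 0.96), Vcam1 like Sbf2, Slc39a8 and Six4 (0.94, 0.93 and 0.93), Hmox1 like Lgals3, Klhl36 and Kif3b (0.94, 0.93 and 0.91) and Mrc1 like Purb, Gfpt1 and Sgsm2 (0.95, 0.93 and 0.91). Over the 20 HSC libraries, as deviations from table means, Slc40a1 was most like Rab32, Adpgk and Cd97 (0.84, 0.83 and 0.83), Vcam1 like Ceacam1, Cdc42ep3 and Lrg1 (0.83, 0.82 and 0.81), Hmox1 like Nup160, Mcm4 and Atp6ap1 (0.83, 0.81 and 0.81) and Axl like Nipa1, Nsg1 and Cyp2j6 (0.88, 0.88 and 0.85). The 2 sets of libraries share no gene among these for Slc40a1, Vcam1 or Hmox1.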

How the data were processed

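RNA was measured in 32 libraries in 10 groups. The authors deposited 4 tables of whole-number read counts per gene; per the submitters' processing notes, the tools were bcl2fastq 2.17, TopHat and DESeq and the genome build was mm9. The counting tool, annotation and strand setting are not given in the sources used here. The design text calls replicates independent; where the labels do not name separate animals, p-values measure the spread between these libraries. No 2 libraries of a table were duplicates (lowest chi-square per degree of freedom 11.6 over 124 pairs).

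CPM are counts divided by summed gene counts, after dropping 92 spike-in rows from each of 2 tables (0 and 1 counts in all). A single model held all 12 leukaemia libraries and each HSC table had its own. Genes passing filterByExpr were tested two-sided with the quasi-likelihood F test of edgeR 4.0.16 (R 4.3.3; TMM scaling, robust fit), and p-values were adjusted by Benjamini-Hochberg over all genes tested, with a threshold of 0.05. DESeq2 1.42.0, RLE scaling, no filter, the replicate number as a block, 2-group fits and leaving out each library were the alternatives. The script was tested on simulated counts. Same-numbered fetal libraries deviated together (r 0.194 to 0.609 in the total-knockout table, 0.326 to 0.602 in the f-PRDM16-knockout table). In the f-PRDM16-knockout table differently numbered libraries had r of 0.121 or less, so the numbers pair the libraries there. In the total-knockout table libraries 1 and 2 also deviated together across numbers (r 0.326 and 0.308), above the 0.194 of the second pair. The numbers there set apart the third pair only. The pairing comes from the data.

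The 10 genes and all lists were chosen with earlier results of these data known. From each list, up to 4 genes with the smallest p among those passing were named, and the 3 genes of highest r as most alike; 1 entry of that ranking is not reported here. Levels of the 10 genes were compared with each other only per kb of transcript. Genes of the lists are given in CPM, which depends on transcript length. Figures used Python 3.11.15 and matplotlib 3.10.9.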

Additional observations from a re-analysis of the deposited data

Results flagged for a closer look

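In marrow, 22 sets of 4 libraries were checked for a library standing apart from the others (gap to the nearest library over the range, above Dixon's 95% critical value), and 2 did; chance gives about 1 in 20. Cd5l was at 2.06 CPM in the first library labelled KO, while the others held 0.144, 0 and 0 CPM. Axl was at 28.0 CPM in the third wild-type library, above 17.0 to 17.9 CPM in the others.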

How the results depend on the processing

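The number of genes called by DESeq2 was 900 for KO+EV against WT+EV (272 in the edgeR fit), 2247 for KO+f against KO+EV (1461), 1394 when KO+s was set against KO+f (494), and 82, 77 and 4 for marrow, the total knockout and the f-PRDM16 knockout (0 each). Fits of only the 2 groups compared called 1 gene for KO+EV against WT+EV and 392 for KO+f against KO+EV. With the replicate number as a block edgeR called 176 genes in the total knockout and 0 in the f-PRDM16 knockout and in marrow, and in leukaemia, where the numbers did not pair the libraries, 195, 1442, 4177 and 372 genes for KO+EV against WT+EV, KO+f and KO+s against KO+EV, and KO+s against KO+f; there the block called Vcam1 in KO+f (-1.53, edgeR adjusted p = 0.00987) and lost Cd5l in KO+s (0.0539), changing no other of the 10 genes' calls.

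Without each library in turn the counts ran from 26 (without the second KO+EV library) to 425 (without the third) for KO+EV against WT+EV, 559 (without the second KO+f library) to 1533 for KO+f against KO+EV, 2732 (without the first KO+s library) to 3821 for KO+s against KO+EV, 37 (without the first KO+s library) to 388 for KO+s against KO+f, and 0 to 3 in marrow (3 without the fourth wild-type library), and stayed at 0 in both fetal tables. In leukaemia, genes whose uncalled log2 difference changed sign when a library was left out were, in KO+EV against WT+EV, Mrc1 (-0.47 to 0.50), C1qc (-0.52 to 0.30) and Mertk (-0.53 to 0.061); in KO+f against KO+EV, Cd5l (-0.21 to 0.34); in KO+s against KO+EV, C1qb (-0.0037 to 0.36) and C1qc (-0.48 to 0.33); and in KO+s against KO+f, Axl (-0.39 to 0.020). In HSCs they were Cd5l (-3.32 to 0.53) and Mertk (-0.65 to 0.50) in marrow, Axl (-0.39 to 0.51) and Hmox1 (-0.064 to 0.44) in the total knockout, and Cd5l (-0.13 to 7.58) and Hmox1 (-0.25 to 0.32) in the f-PRDM16 knockout; with the replicate number as a block Cd5l and Mertk in marrow were -1.42 and -0.25, Hmox1 in the f-PRDM16 knockout 0.014 and Axl in the total knockout 0.045. The cause was not tested. No gene of the 10 that was called in leukaemia changed direction. Of 440 leukaemia values of the 10 genes under alternatives, 405 kept direction and side of the threshold, 18 lost the call, 6 gained it and 11 changed sign. TMM-scaled library sizes moved 99 of 100 group means by less than their SD; the exception was C1qc in KO+s (1.93 to 2.04 CPM). Levels of a few counts, such as C1q and Cd5l, are limited by depth: a count of 0 allows up to 3 counts.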
